A study of Mus musculus with 22 samples.

Results

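A set of 9 genes of the complement system were followed in mouse lung after a single instillation of Mitsui7, a multi-walled carbon nanotube. They are the C1q chains C1qa, C1qb and C1qc, the components C3, C4b, Cfb and Cfp, and the anaphylatoxin receptors C3ar1 and C5ar1. A probe was taken as a member where the RefSeq accession printed for it in the array files belongs to a gene of this list. All 9 genes were found, by 10 probes, among 20018 genes named by 26413 probes. C3 has 2 probes, and the brighter one was used unless the other is named. Each member passed the expression filter, met by 16426 genes, for which the lung signal had to exceed the background set by negative controls in 80% or more of the mice of any group.

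The lungs came from female C57BL/6 mice instilled at 8 weeks of age with 40 µl, under the same anaesthesia in every group, and collected 24 hours later. Control mice (n = 5) received the vehicle, saline with bronchoalveolar lavage (BAL) fluid, and the treated mice received Mitsui7 at 18 µg (n = 6), 54 µg (n = 5) or 162 µg (n = 6). Total RNA of the right lung, 1 mouse per array, was labelled with Cy5 and hybridised with Cy3-labelled reference RNA from a pool of mouse cell lines. A level is therefore the log2 ratio of lung to reference, and it can be compared between mice for 1 gene but not between genes. A gene was called where limma's adjusted p was at most 0.05 and the change at least 1.5-fold. The 22 arrays lay on 7 slides, of which 2 held no control, and slide was a term of the fit unless another setting is named. All 3 doses were compared with the same 5 controls, so the comparisons are not independent of one another. Between 50.3% and 83.5% of the probes of an array exceeded background. The range was 70.4% to 77.5% in controls and 56.8% to 77.9% at 18 µg, where 4 of 6 arrays were below every control. It was 57.0% to 78.9% at 54 µg and 50.3% to 83.5% at 162 µg, with some arrays of each dose below every control. The median signal over background was 1.44, 1.49 and 1.72 at 18, 54 and 162 µg and 2.00 in controls. The part of array quality in the results was not tested at any dose. All 8 type II and all 5 type I alveolar markers on the array passed the expression filter. The third mouse at 54 µg stood apart from the other 4 of its group in C3, C4b and Cfp, and 54 µg values are given with and without it where these genes are described.

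Complement is a cascade of plasma and tissue proteins that marks particles, microbes and damaged cells. In the classical pathway C1q binds a surface and its proteases cleave C4 and C2, and in the alternative pathway factor B joins deposited C3 to form an enzyme that cleaves more C3, which properdin holds together. Both routes meet at C3, whose cleavage leaves an opsonin on the surface and frees the small peptide C3a, and later C5a is freed from C5. These peptides, the anaphylatoxins, act on C3ar1 and C5ar1 and draw in and activate myeloid cells. C3 and factor B are made in the liver and, in the lung, by epithelial cells and macrophages, C1q and properdin mostly by myeloid cells.

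C3 and Cfb were higher than in controls at 18 µg and were the members called there. C3ar1 passed the adjusted p at that dose without reaching the fold limit, the remaining members did not pass it, and no member was called at 54 µg or at 162 µg. Thus 2 of 9 members were called at 18 µg, both higher, where 2.08% of all expressed genes were called in either direction and 0.633% were called higher. At 54 µg 0 of 9 were called by limma against 0.39% of all genes, with 2 members at an unadjusted p under 0.05, C3 and Cfb. At 162 µg 0 of 9 were called against 6.87% of all genes, with 3 members at an unadjusted p under 0.05, C3, Cfb and C5ar1. At 18 µg 5 members were under that unadjusted cut, C3, Cfb, Cfp, C3ar1 and C1qc. The share of all genes under it was not counted, so such counts have no background beside them, here or below. The median log2 fold change of the 9 members was 0.46, 0.04 and 0.21 at 18, 54 and 162 µg, beside -0.02, -0.01 and -0.01 over all expressed genes. The number of members with a fitted value above 0 was 8, 5 and 8 of 9, and it was 5, 4 and 5 with median centring and 5, 8 and 5 with no normalization. In whole lung RNA, more cells of a type and more RNA per cell cannot be told apart.

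**Figure D1:**
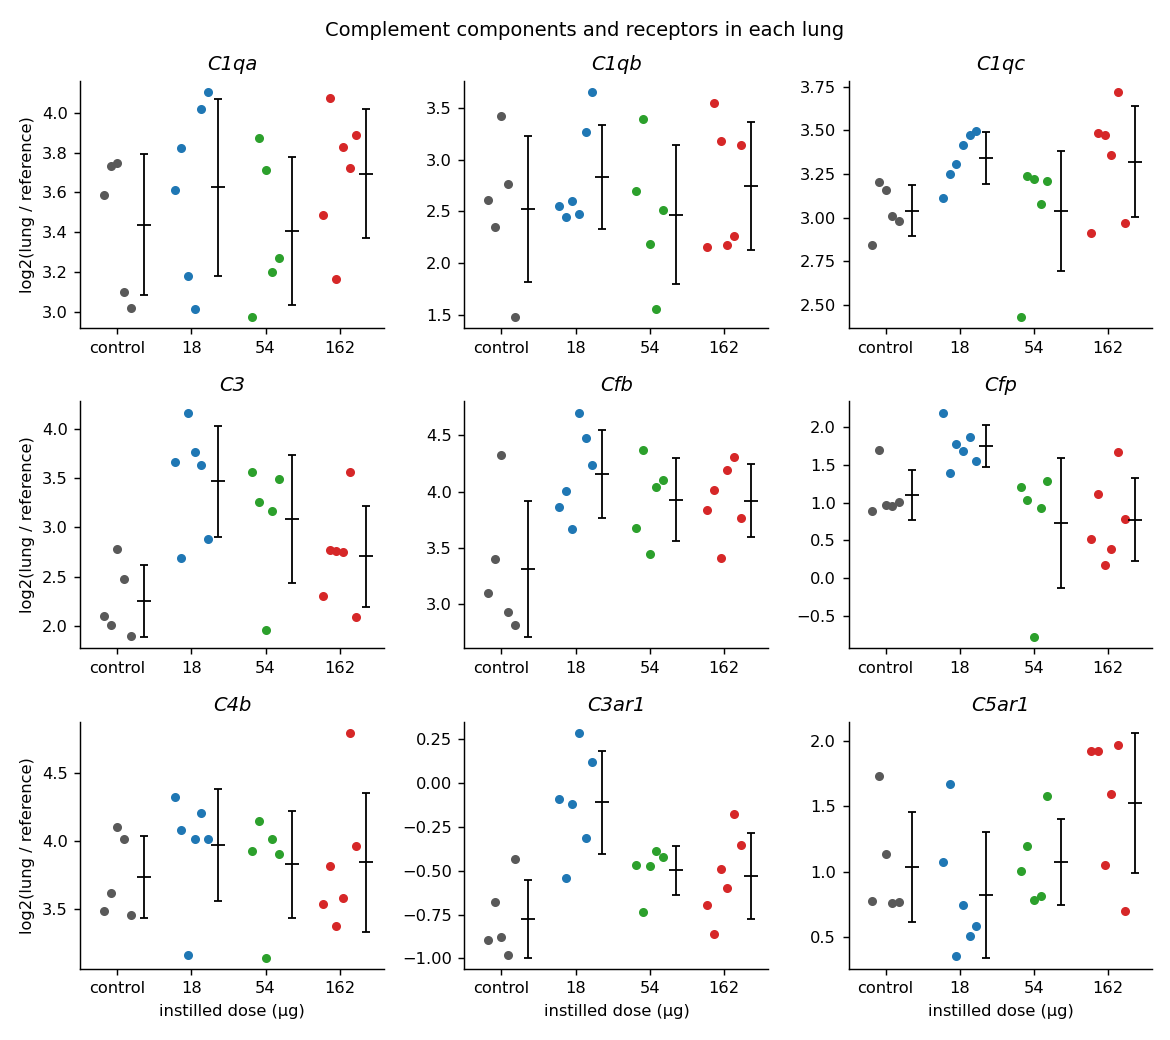
Log2 ratio of lung to reference RNA (vertical axis) for each member in each lung, by instilled dose in µg (horizontal axis). Each point is 1 mouse (control n = 5, 18 µg n = 6, 54 µg n = 5, 162 µg n = 6), with the mean ± SD at the right of each group. The highest group mean is at 18 µg for C3 (3.47), Cfb (4.16), Cfp (1.75), C4b (3.97), C1qb (2.83), C1qc (3.34) and C3ar1 (-0.11). It is at 162 µg for C1qa (3.69) and C5ar1 (1.53).

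C3 is the protein on which the pathways converge. In the 5 control lungs its log2 ratio was 2.10, 2.01, 2.78, 2.48 and 1.90. At 18 µg the lowest, the median and the highest of 6 lungs were 2.69, 3.65 and 4.16. In all, 5 of 6 lungs lay above every control, and the lowest lay just under the highest control. At 54 µg the 5 lungs read 3.57, 3.26, 1.96, 3.16 and 3.49, 4 of them above every control and the third mouse among the controls. At 162 µg the 6 lungs ran from 2.09 over a median of 2.75 to 3.57, and 1 of them was above every control. The group means fell in the order 18 µg (3.47 ± 0.56, SD, n = 6), 54 µg (3.09 ± 0.65, n = 5), 162 µg (2.71 ± 0.51, n = 6) and control (2.25 ± 0.37, n = 5). Each later mean lay within the SD of the group before it, but the 162 µg mean lay outside the SD of the controls.

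C3 was 2.59-fold higher at 18 µg than in controls, a log2 fold change of 1.37 (SE 0.28, limma adjusted p = 0.0269). At 54 µg it was 0.92 (SE 0.30, adjusted p = 0.306), which was not called, and without the third mouse 1.16 (adjusted p = 0.0553). At 162 µg it was 0.60 (SE 0.28, adjusted p = 0.273). The second C3 probe gave 1.19 at 18 µg (SE 0.30, adjusted p = 0.0600), which was not called, with 6 of 6 lungs above every control. It gave 0.66 at 54 µg and 0.59 at 162 µg, where 1 array without a value left 5 lungs. From 18 to 162 µg C3 differed by -0.78 (SE 0.26, adjusted p = 0.119), which passed without the third 54 µg mouse (adjusted p = 0.0416). Within the 4 slides that hold both a control and an 18 µg lung, C3 was higher in the 18 µg lung on each, by 0.68 to 1.74. The call at 18 µg was lost when control replicate 1, 4 or 5 or 18 µg replicate 1, 3 or 5 was left out, with values of 1.21 to 1.51 and adjusted p up to 0.111 over the 22 fits that leave out 1 array. It was also lost with the Cy5 channel alone (0.99), the deposited log2 table (1.25), no slide term (1.21), median centring (0.84) or no normalization (0.68).

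The bases just before the C3 start are shown because C3 had the highest fold change at 18 µg, with those of Cfp and C3ar1, which came next among the members that have a RefSeq entry. RefSeq entries were matched for 6 of the 9 members (C1qb, C1qc, C3, Cfp, C3ar1, C5ar1). Each line holds the 250 bases before the annotated start on GRCm38.p6, read on the strand of the gene, which is the minus strand for all 3. Capitals mark GGGNNNNNCC, a core of NF-kB sites, and TTGCNNAA, a core of C/EBP sites, on either strand, and neighbouring or overlapping matches run together. The windows are chr17:57228137-57228386 for C3, chrX:20931556-20931805 for Cfp and chr6:122856158-122856407 for C3ar1.
C3: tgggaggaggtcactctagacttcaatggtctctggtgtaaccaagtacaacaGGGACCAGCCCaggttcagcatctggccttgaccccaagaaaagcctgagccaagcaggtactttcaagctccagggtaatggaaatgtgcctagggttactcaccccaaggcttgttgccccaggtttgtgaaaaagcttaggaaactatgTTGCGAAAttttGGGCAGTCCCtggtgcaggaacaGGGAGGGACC
Cfp: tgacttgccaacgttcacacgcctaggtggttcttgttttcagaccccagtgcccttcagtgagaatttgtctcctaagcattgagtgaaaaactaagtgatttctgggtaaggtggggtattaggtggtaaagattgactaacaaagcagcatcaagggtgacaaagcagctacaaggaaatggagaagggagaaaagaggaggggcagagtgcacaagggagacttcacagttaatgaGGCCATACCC
C3ar1: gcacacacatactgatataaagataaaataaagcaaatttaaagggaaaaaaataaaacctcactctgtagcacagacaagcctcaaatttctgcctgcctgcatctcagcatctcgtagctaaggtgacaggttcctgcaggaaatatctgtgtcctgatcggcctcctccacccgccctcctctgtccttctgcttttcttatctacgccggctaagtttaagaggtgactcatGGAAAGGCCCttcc
The NF-kB letters were found in all 3 windows, in those of C1qb and C1qc, and in 45.8% of 32851 RefSeq windows of the same length. Only the C3 window of these 3 held the C/EBP letters, TTGCGAAA from 45 to 38 bases before the start, and 9.56% of all windows held them. The letters TTCNNNGAA (STAT, 7.02% of all windows), GAAANNGAAA (interferon response, 2.98%) and GAGGAA (ETS, 23.3%) were not in these 3 windows. The ETS letters were in the windows of C1qb and C1qc, the genes of C1q chains.

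Cfb encodes factor B, the protease of the alternative pathway. Control lungs read 3.10, 3.40, 4.33, 2.93 and 2.81. The 18 µg lungs ran from 3.67 over 4.12 to 4.70, above 4 of the 5 controls in every lung, while 2 of 6 were above the third control mouse, which was the highest. At 54 µg the values were 3.67, 4.37, 3.45, 4.04 and 4.11, and at 162 µg they ran from 3.41 over 3.93 to 4.31. Every treated lung was above 4 of the 5 controls at all 3 doses. The means were 4.16 ± 0.39 at 18 µg, 3.93 ± 0.37 at 54 µg, 3.92 ± 0.33 at 162 µg and 3.31 ± 0.61 in controls (SD, n = 6, 5, 6 and 5), and the 3 doses lay within each other's spread.

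Cfb was 1.87-fold higher at 18 µg, a log2 fold change of 0.90 (SE 0.20, limma adjusted p = 0.0343). The values of 0.46 at 54 µg (SE 0.21, adjusted p = 0.554) and 0.53 at 162 µg (SE 0.20, adjusted p = 0.143) were not called. On the 4 slides with both groups the 18 µg lung was higher on each, by 0.60 to 1.67. Leaving out any 1 of the 6 arrays named for C3, 18 µg replicate 4 or 54 µg replicate 2 ended the call, with values of 0.67 to 1.02 and adjusted p up to 0.112. So did the Cy5 channel alone (0.98), the deposited log2 table (0.99), no slide term (0.85), a fit of these groups only (0.94), median centring (0.47), no normalization (0.32) and replicate number in place of slide (0.85). C2, the protease of the classical pathway, is the next gene to Cfb on chromosome 17, and it gave 0.60 at 18 µg (SE 0.22, adjusted p = 0.191), 0.12 at 54 µg and 0.36 at 162 µg, none of them called.

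Cfp encodes properdin, which stabilises the enzyme that factor B forms, and it was called between the low and the high dose. Controls read 0.90, 1.70, 0.96, 0.95 and 1.01, the second mouse well above the rest. At 18 µg the lungs ran from 1.40 over 1.73 to 2.19, 3 of 6 above every control and all 6 above the other 4. The 54 µg lungs read 1.20, 1.03, -0.78, 0.93 and 1.28. At 162 µg they ran from 0.18 over 0.65 to 1.67, with 4 of 6 below every control. The log2 fold changes were 0.79 at 18 µg (SE 0.28, adjusted p = 0.164), -0.30 at 54 µg (SE 0.30, adjusted p = 0.869) and -0.17 at 162 µg (SE 0.28, adjusted p = 0.845), so none was called against control. Without the third 54 µg mouse the 54 µg value was -0.07. Without the second control mouse the 18 µg value was 1.07 (adjusted p = 0.0525) and the 162 µg value was 0.11.

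Between the highest and the lowest dose, Cfp was the 1 of 9 members that was called, where 4.99% of all expressed genes were called and 1.66% were lower at 162 µg. The log2 fold change was -0.96 (SE 0.26, limma adjusted p = 0.0443), and 5 of 6 lungs at 162 µg were below every lung at 18 µg. The call held in 7 of the 22 fits that leave out 1 array, those without control replicate 2, 18 µg replicate 2 or 6, 54 µg replicate 1, 3 or 5, or 162 µg replicate 5. In the other 15 fits the adjusted p rose above 0.05, to at most 0.143, with the value between -1.12 and -0.78 over all 22. It was also lost with median centring (-0.80), no normalization (-0.66), the Cy5 channel alone (-0.81), no slide term (-0.97) and replicate number beside slide (-0.85). Between 18 and 54 µg Cfp differed by -1.09 (SE 0.28, adjusted p = 0.173), which was not called, and 0 of 9 members were called in that comparison against 0.0304% of all genes, with 5 members at an unadjusted p under 0.05 (C1qb, C1qc, Cfb, Cfp and C3ar1).

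C3ar1, the receptor of C3a, passed the adjusted p at 18 µg and was short of the fold limit. Its control values were -0.90, -0.68, -0.88, -0.98 and -0.44, all below the reference. At 18 µg the lungs ran from -0.54 over -0.11 to 0.29, and 5 of 6 were above every control. The 54 µg lungs read -0.47, -0.74, -0.47, -0.39 and -0.42, and those at 162 µg ran from -0.86 over -0.55 to -0.18, both groups overlapping the controls. The log2 fold change was 0.56 at 18 µg (SE 0.13, limma adjusted p = 0.0417), a change of 1.47-fold, and 2.58% of all expressed genes passed the adjusted p alone. It was 0.16 at 54 µg (SE 0.14, adjusted p = 0.835), 0.18 at 162 µg (SE 0.13, adjusted p = 0.551), and from 18 to 162 µg -0.38 (SE 0.12, adjusted p = 0.0862). On the 4 slides with both groups the 18 µg lung was higher on each, by 0.12 to 0.86. The fold limit was passed, with the adjusted p, when slide was a random block (0.62), was left out (0.67) or was replaced by replicate number (0.63), and without control replicate 2 (0.64) or 18 µg replicate 2 (0.64). C3ar1 was called in 4 of 15 other settings, including that with no fold limit. Over all 15 the values were 0.31 to 0.67, with limma adjusted p up to 0.498. Over the 22 fits that leave out 1 array they were 0.48 to 0.66, with adjusted p from 0.0321 to 0.151. With replicate number beside slide the adjusted p was 0.141. The probe is dim: its signal was well above background on 20 of 22 arrays, all 11 of the control and 18 µg arrays among them. Its median Cy5 signal was 111.5 at 18 µg (107.5 to 137) and 131 in controls (106 to 142.5). Before any scaling the Cy5 signal was thus not higher at 18 µg, and the part of dim signal in the log2 ratio was not tested.

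C5ar1, the receptor of C5a that neutrophils and macrophages carry, had its highest group mean at 162 µg and its lowest at 18 µg. Controls read 0.78, 1.73, 1.13, 0.76 and 0.77. The 18 µg lungs ran from 0.36 over 0.67 to 1.67, with 4 of 6 below every control, and the 54 µg lungs read 1.00, 1.20, 0.78, 0.81 and 1.58. At 162 µg they ran from 0.70 over 1.76 to 1.97, with 3 of 6 above every control. The log2 fold changes were -0.11 at 18 µg (SE 0.21, adjusted p = 0.869), 0.16 at 54 µg (SE 0.22, adjusted p = 0.924) and 0.56 at 162 µg (SE 0.21, limma adjusted p = 0.140). The change from 18 to 162 µg was 0.66 (SE 0.19, adjusted p = 0.0628), just outside the threshold, and it passed with replicate number beside slide (0.76, adjusted p = 0.0298), in place of it (0.70, adjusted p = 0.0299), or without 54 µg replicate 5 (adjusted p = 0.0122) or 162 µg replicate 6 (0.86, adjusted p = 0.00972). Leaving out these same 2 arrays in turn brought the 162 µg value past the threshold against control as well (0.63 and 0.68, adjusted p = 0.0203 and 0.0301). On the 4 slides with a control and a 162 µg lung the 162 µg lung was higher on each, by 0.19 to 1.21. The C5ar1 probe is dim too, though well above background on every array. Its median Cy5 signal was 109 at 18 µg (99 to 219), 185 in controls (133 to 314.5) and 202 at 162 µg (102.5 to 372.5). The part of dim signal in the low 18 µg values was not tested.

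**Figure D2:**
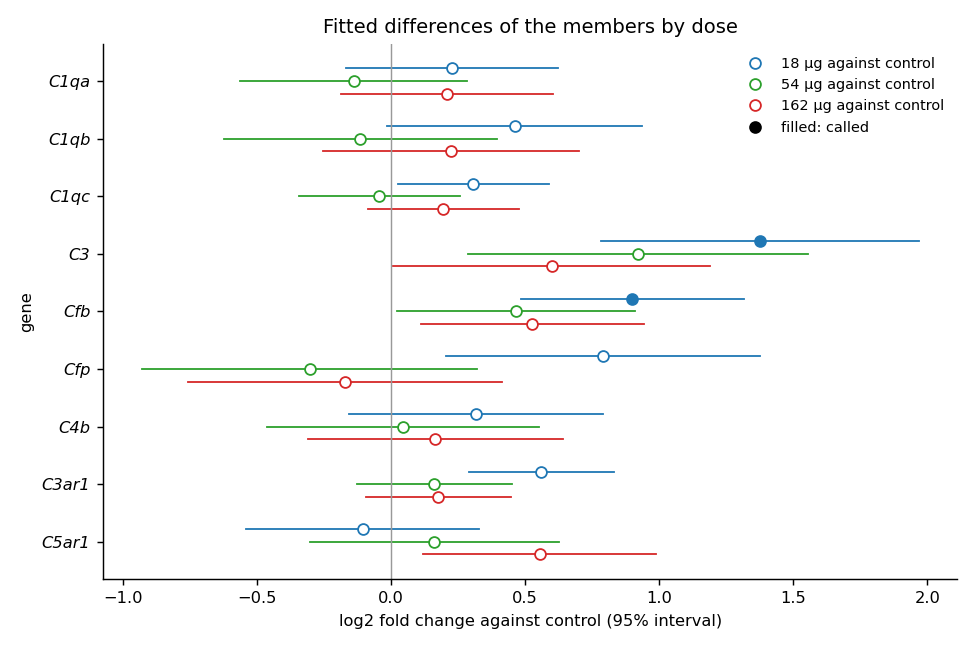
Log2 fold change against control (horizontal axis) with its 95% interval for each member (vertical axis) at 18, 54 and 162 µg, from the limma fit over 22 arrays. Filled points were called. C3 (1.37) and Cfb (0.90) at 18 µg are the filled points.

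The C1q chains, which assemble into the recognition molecule of the classical pathway and whose genes are neighbours on chromosome 4 in the order C1qb, C1qc and C1qa, were not called at any dose. C1qa controls read 3.59, 3.73, 3.75, 3.10 and 3.02, and its 18 µg lungs ran from 3.02 over 3.72 to 4.10. C1qb controls spread from 1.49 to 3.42, a wider range than that of its 18 µg lungs (2.45 to 3.65) and 162 µg lungs (2.16 to 3.54). C1qc was the tightest of the 3 in controls, at 2.85, 3.21, 3.16, 3.01 and 2.98, and its 18 µg lungs ran from 3.11 over 3.36 to 3.49 with 5 of 6 above every control. The log2 fold changes at 18 µg were 0.23 for C1qa (SE 0.19), 0.46 for C1qb (SE 0.23) and 0.31 for C1qc (SE 0.13, adjusted p = 0.276). The corresponding values were -0.14, -0.11 and -0.04 at 54 µg and 0.21, 0.22 and 0.19 at 162 µg. The 95% intervals at 162 µg were -0.19 to 0.61 for C1qa, -0.25 to 0.70 for C1qb and -0.09 to 0.48 for C1qc. With median centring or no normalization the 18 µg values of C1qa and C1qc turned below 0.

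C4b, the component that C1 and the lectin proteases cleave, was likewise not called. Controls read 3.48, 3.62, 4.10, 4.01 and 3.45, the 18 µg lungs ran from 3.16 over 4.05 to 4.32, the 54 µg lungs read 3.93, 4.15, 3.14, 4.01 and 3.91, and the 162 µg lungs ran from 3.37 over 3.70 to 4.79. All groups overlapped. The log2 fold changes were 0.32 (SE 0.23, adjusted p = 0.565), 0.04 (SE 0.24, adjusted p = 0.988) and 0.17 (SE 0.23, adjusted p = 0.809) at 18, 54 and 162 µg, and without the third 54 µg mouse the 54 µg value was 0.13. C4a, a near-identical neighbour of C4b in mice, was not matched to a probe, and whether the C4b probe also reads it was not tested.

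At 18 µg 3 members had 5 of 6 lungs above every control (C3, C3ar1 and C1qc). The share of all genes with 5 of 6 above was not counted, so this count has no background beside it. By its brightest probe no member had all 6 above, as 1.34% of 15917 genes measured on all these arrays did. The second C3 probe had 6 of 6 above. Among the members, the pair with the closest levels over the 22 lungs was C3 and Cfb, with Pearson's r of 0.61, followed by C3 and Cfp with 0.60, C4b and Cfp with 0.57, C4b and Cfb with 0.56 and C3 and C3ar1 with 0.54. The lowest was C3ar1 and C5ar1 with -0.35. The C1q chains gave 0.51 (C1qa and C1qb), 0.43 (C1qa and C1qc) and 0.25 (C1qb and C1qc). These coefficients describe lungs that share slides, doses and array quality.

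Over 15000 genes measured on every array, the gene most like C4b was C1s1, a protease of the C1 complex, with r = 0.88, then C2 with r = 0.83 and Wt1, a mesothelial transcription factor, with r = 0.82. The closest to C3 were Rab3il1, Lman2 and the chemokine Cxcl10 (r = 0.84, 0.84 and 0.82). Cfb was most like Lgmn (0.74), with Csf1 at 0.72, Cfp most like Cklf (0.88), Cd48 and Plac8, and C3ar1 most like Dlk1 (0.91), Ccne1 and Capg, an actin-capping protein. C5ar1 was most like Map3k8, a kinase of inflammatory signalling, with r = 0.82, followed by Cstdc5 and Snx10.

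Outside the 9 members, 50 further complement genes were listed by role, of which 47 were on the array and 39 passed the expression filter. Of these 39, 1 was called at 18 µg, 0 at 54 µg by limma (with 6 at an unadjusted p under 0.05) and 4 at 162 µg, beside 2.08%, 0.39% and 6.87% of all expressed genes, and their median log2 fold change was 0.02, -0.06 and -0.06. Hc, which encodes C5, the source of C5a, was the one called at 18 µg. Its level was 7.96 ± 0.45 in controls (SD, n = 5) and 8.61 ± 0.52 at 18 µg (n = 6), a log2 fold change of 0.68 (SE 0.14, limma adjusted p = 0.0317) with 3 of 6 lungs above every control. The values at 54 and 162 µg were -0.16 and -0.05, and the difference from 18 to 162 µg was -0.73 (SE 0.13, adjusted p = 0.00517). Leaving out control replicate 1, 3, 4 or 5, 18 µg replicate 1, 2, 3 or 5 or 54 µg replicate 2 ended the 18 µg call of Hc, with adjusted p up to 0.110. Quantile normalization (0.43), the Cy5 channel alone (0.23), median centring (0.29) and no normalization (0.13), among 9 of 15 other settings, ended it too.

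At 162 µg 2 of the 15 expressed regulators were called, Clu higher and Cd55 lower, and the list median was -0.09. Clu, clusterin, an inhibitor of the terminal complex, had all 6 lungs at 162 µg above every control, as did 3.69% of 15341 genes measured on all these arrays. It ran from 2.36 to 2.89 in controls and from 3.29 to 4.39 at 162 µg. Its log2 fold change at 18, 54 and 162 µg was 0.56 (SE 0.16, adjusted p = 0.0954), 0.79 (SE 0.18, adjusted p = 0.0870) and 1.15 (SE 0.16, limma adjusted p = 0.000669), and the call at 162 µg held in all 22 fits that leave out 1 array and was lost with median centring (0.80) and no normalization (0.79). Cd55, decay-accelerating factor, which takes apart the C3-cleaving enzymes on host cells, ran from 4.21 to 4.60 in controls and from 2.42 to 3.95 at 162 µg, all 6 lungs below every control (-0.91, SE 0.23, adjusted p = 0.0240). The Cd55 call was lost without control replicate 2 (-0.89), 3 (-0.97) or 5 (-0.75) or 162 µg replicate 1 (-0.87), and with replicate number beside slide (-0.86), the deposited log2 table (-0.88), median centring (-1.08) and no normalization (-1.09). Colec12, a scavenger receptor of the collectin family, was also below every control in all 6 lungs (-0.65, SE 0.14, adjusted p = 0.00862), and it dropped under the fold limit without control replicate 3 (-0.50) or 162 µg replicate 2 (-0.54). Its call was also lost with replicate number beside slide (-0.33), the Cy5 channel alone (-0.51), the deposited log2 table (-0.61), median centring (-0.87) and no normalization (-0.88). Cr2, the complement receptor of B cells, was below every control in all 6 lungs too, at -0.06 to 0.76 against 1.32 to 2.07 in controls (-1.02, SE 0.19, adjusted p = 0.00491). The Cr2 call was lost with replicate number beside slide (adjusted p = 0.0810) and no normalization (-1.03). The B cell marker Ms4a1 was called lower at 162 µg too (-0.89), and all 5 B cell markers lay lower, with a list mean of -0.14 to 0.79 against 0.76 to 1.53 in controls. The part of B cells in the Cr2 result was not tested. The share of all genes with every 162 µg lung below every control is not given here.

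**Figure D3:**
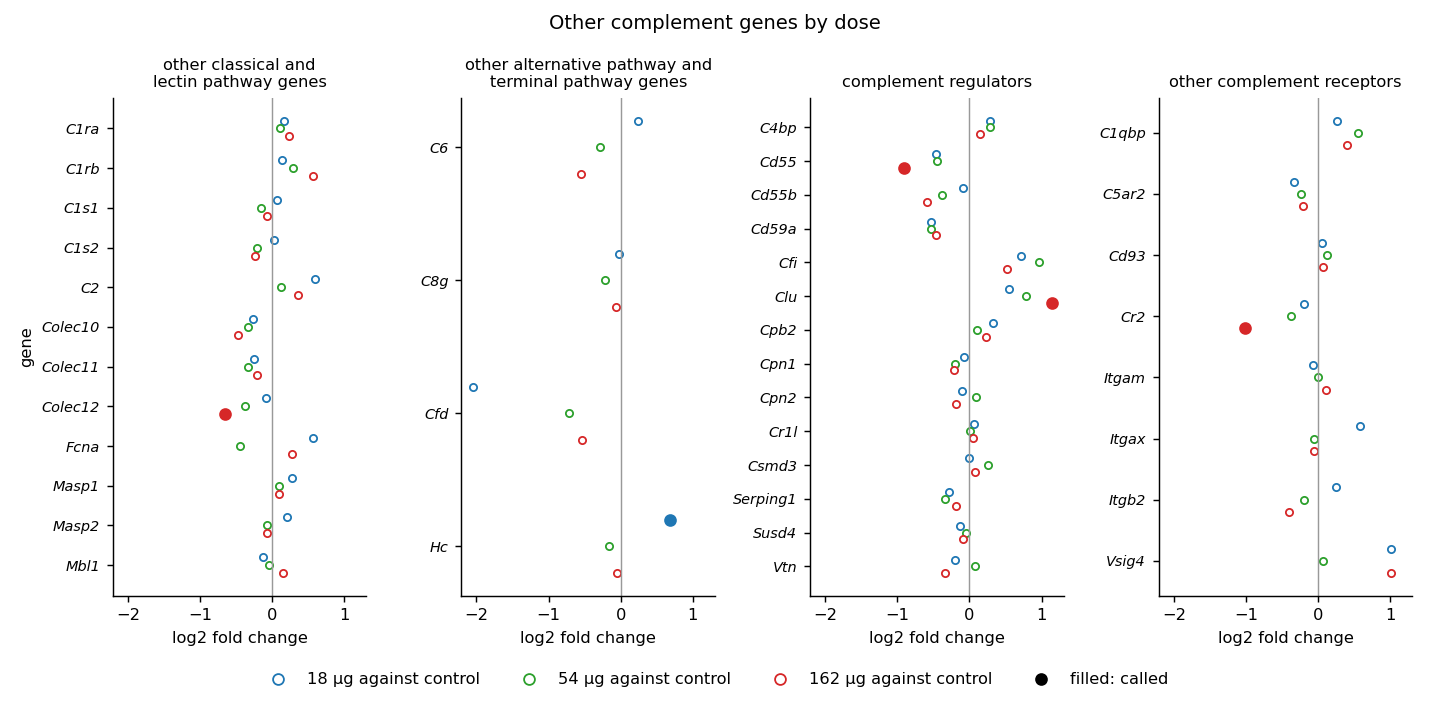
Log2 fold change against control (horizontal axis) of the other complement genes that passed the expression filter, by list and with 1 gene not shown, at 18, 54 and 162 µg. Filled points were called: Hc at 18 µg and Colec12, Cd55, Clu and Cr2 at 162 µg.

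The remaining complement genes were not called at any dose. Among the brightest of the rest, Serping1, the C1 inhibitor, gave -0.29, -0.34 and -0.18 at 18, 54 and 162 µg and Cd93, a receptor of endothelial and myeloid cells, 0.05, 0.12 and 0.07. Itgam, the alpha chain of complement receptor 3, gave -0.08, -0.01 and 0.11. C6, of the terminal complex, gave 0.24, -0.29 and -0.56, with 1 lung each missing at 54 and 162 µg, and C1s2 0.02, -0.20 and -0.23. Cfd, factor D, the adipocyte-derived protease that cleaves factor B, spread from 0.43 to 8.40 at 18 µg alone, so that its value of -2.05 had an SE of 1.45.

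Marker lists of cell types that the lung piece can hold were read beside the members. The 5 mesothelial markers on the array (Msln, Upk3b, Upk1b, Wt1 and Lrrn4) had a median log2 fold change of 0.97 at 18 µg, where all 5 were higher and 0 were called by limma, with 2 at an unadjusted p under 0.05. The mean over the list in a lung lay between -0.52 and 0.53 in controls. The 18 µg lungs lay between -0.52 and 1.43, those of 54 µg between -0.85 and 0.64, and those of 162 µg between -0.32 and 1.33. The third 54 µg mouse, low in C3, C4b and Cfp, had the lowest mesothelial and monocyte list means of its group. Its neutrophil, eosinophil and B cell list means were the lowest of the group too, and its macrophage list means were not. The array of this mouse also had the lowest share of probes above background in the group, at 57.0%. The part of array quality in its values was not tested. The part of mesothelial cells in the C3, Cfb and C4b values was not tested.

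The monocyte markers gave a median of 0.23 at 18 µg, with 4 of 6 higher and 2 lower. Of these 6, Chil3 was called higher (1.73), and 1 was at an unadjusted p under 0.05. At 162 µg the median was -0.07, and the list means overlapped in all groups. The interstitial macrophage list stayed near 0 at the 3 doses (-0.05, -0.01 and 0.09) and had 0 of 12 markers called, with 1, 3 and 4 markers at an unadjusted p under 0.05. The alveolar macrophage list was at -0.34, -0.17 and 0.14, with Marco and Abcg1 called at 162 µg, 1 higher and 1 lower. The eosinophil list, of which 4 of 6 markers passed the expression filter, gave 0.35, 0.11 and 0.01. All 4 were higher at 18 µg with 0 called by limma there, and Ear6 was called higher at 162 µg. Its list means overlapped in all groups. The neutrophil list had medians of -0.03 at 18 µg, 0.19 at 54 µg and 0.64 at 162 µg, with Il1r2 called at 162 µg (2.36), 9 of 11 markers higher and a list mean of 1.87 to 4.42 at 162 µg. The second control mouse, also the highest control for C5ar1 and Cfp, had a neutrophil list mean of 4.14, and the other 4 controls lay between 1.54 and 2.04, below 5 of the 6 lungs at 162 µg. Without this mouse C5ar1 gave 0.60 at 162 µg (adjusted p = 0.166). The hepatocyte list, of which 3 of 5 markers passed the expression filter, gave 0.77, 1.03 and 0.89, with 0 called by limma at each dose and 0, 0 and 1 at an unadjusted p under 0.05. At 162 µg its list mean was 3.47 and 2.72 in replicates 1 and 2, but the median over the lungs was 0.34, beside 0.45 in controls. The fibroblast list was lower at 18 µg in all 7 markers (median -0.29, 0 called by limma and 1 at an unadjusted p under 0.05), and its mean was 0.66 to 1.38 in the 18 µg lungs, all below the controls at 1.48 to 1.88. The club cell list gave -0.53 at 18 µg and -0.51 at 54 µg, and at 162 µg its median was that of Cyp2f2, which was called lower (-1.0045). The type II alveolar list gave 0.20, -0.02 and 0.08 at the 3 doses, with Napsa called higher at 162 µg. The type I alveolar list gave 0.175, 0.13 and 0.14, with Pdpn called higher at 162 µg. The endothelial list gave 0.22, 0.01 and 0.13, with Kdr called higher at 18 µg. At 18 µg 6 of 8, 5 of 5 and 6 of 6 markers of these lists were higher, with 2, 1 and 1 at an unadjusted p under 0.05. The part of fibroblasts, club cells, alveolar cells and endothelial cells in the members' values was not tested. The part of neutrophils in the C5ar1 values, of monocytes in the Cfp and C3ar1 values and of eosinophils in the members' values was not tested.

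**Figure D4:**
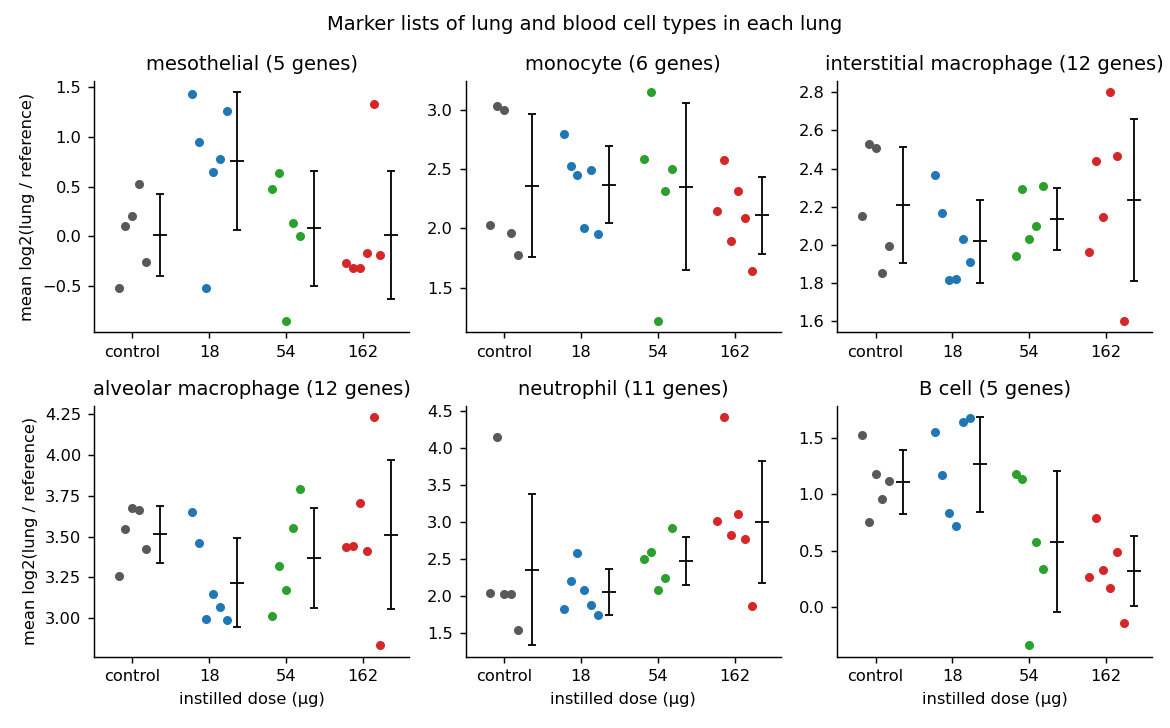
Mean log2 ratio of lung to reference over the expressed markers of 6 cell types (vertical axis) in each lung, by instilled dose in µg (horizontal axis). Points are mice and bars are the mean ± SD. Mesothelial means reach 1.43 at 18 µg, and B cell means at 162 µg do not exceed 0.79.

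**Figure D5:**
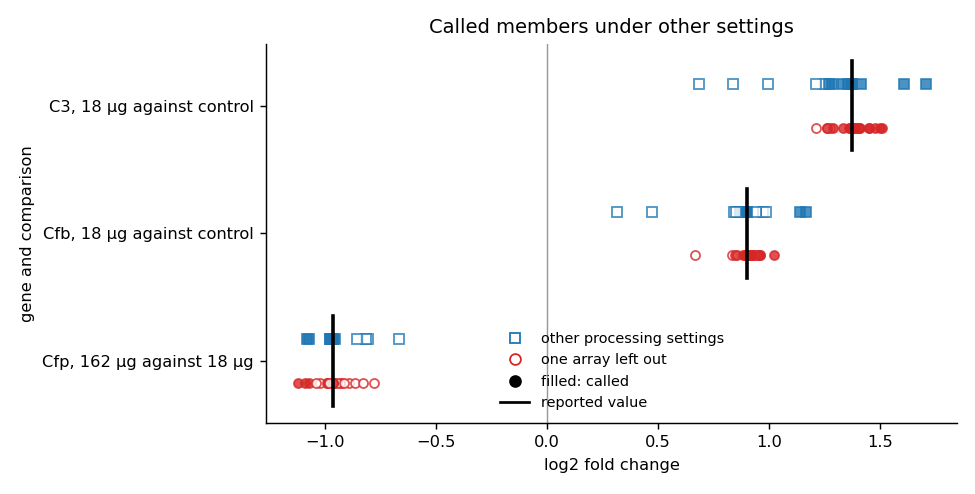
Log2 fold change (horizontal axis) of the called members under 15 other settings (squares) and in 22 fits with 1 array left out (circles), with the reported value as a line. Filled symbols were called. C3 at 18 µg stays between 0.68 and 1.71, Cfb at 18 µg between 0.32 and 1.17, and Cfp from 18 to 162 µg between -1.12 and -0.66.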

How the data were processed

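Lung RNA of 22 mice was hybridised to 2-colour arrays against reference RNA, lung in Cy5 and reference in Cy3, with no dye swap. The authors deposited intensity values, the median pixel signals of each spot and of its background, raw in both channels. Per the file headers the scanner images were read with Feature Extraction 10.7.3.1. They also deposited a log2 table of lung over reference whose normalization is not stated, used as an alternative; its values correlated with those used here at 0.86 to 1.00 (Pearson's r per array), and its column medians were -0.05 to -0.02.

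Outlier spots were left out, log ratios were normalized within arrays by loess (span 0.3) without background subtraction, and repeated spots were reduced to their median, giving 55681 probes. Genes were named through RefSeq (GRCm38.p6) and read by their brightest probe. The background of an array was the trimmed mean (5%) plus 3 trimmed SD of 308 negative control spots. Dose and slide were fixed effects in limma 3.58.1 (R 4.3.3), with 12 residual degrees of freedom and Benjamini-Hochberg adjustment over all probes. The number of arrays limits the precision. Further complement genes were described where called at a dose, or if among the 2 brightest of the rest of their list, and some of these are not reported here.

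Members and lists were chosen with earlier results of these data known. Fits were tested on simulated data. Alternatives were other background corrections, normalizations, filters and blocks, and leaving out each array.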

Additional observations from a re-analysis of the deposited data

Results flagged for a closer look

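In 7 of 36 groups of lungs (9 members, 4 groups each) the lowest or the highest lung lay far from the others by Dixon's test, which flags about 1 group in 20 by chance. The third 54 µg mouse was lowest of its group in 3 of them, with 1.96 for C3 (nearest lung 3.16), 3.14 for C4b (nearest 3.91) and -0.78 for Cfp (nearest 0.93). The other lungs set apart were the first 54 µg mouse for C1qc at 2.43 (nearest 3.08), the second 54 µg mouse for C3ar1 at -0.74 (nearest -0.47), the third 18 µg mouse for C4b at 3.16 (nearest 4.01) and the second control mouse for Cfp at 1.70 (nearest 1.01).

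Cfp differed between the highest and the lowest dose by the test of the difference itself, at -0.96 (limma adjusted p = 0.0443).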

How the results depend on the processing

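Depth was not counted on these arrays. Dim signals limit C3ar1 and C5ar1 most. Signs of members near 0 and all calls of members changed with scaling, and a p past the threshold in 1 setting and not in another does not show a difference.

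The number of members called at 18 µg (2) was 0 with median centring, no normalization, the Cy5 channel alone or the deposited log2 table. It was 1 with no slide term, where C3 and Cfb were lost and C3ar1 was called. With only the 2 groups compared it was 1 as well, and Cfb was lost. C3ar1 was also called with slide as a random block, with no fold limit, and with replicate number in place of slide, where Cfb was lost. At 54 µg it was 1 with only the 2 groups compared (C3, 1.07, adjusted p = 0.0193). The number of other complement genes called at 18 µg (1) was 0 with those 4 scalings, no slide term, slide as a random block or only the 2 groups compared. At 162 µg (4) it was 1 with median centring, 0 with no normalization, 2 with the deposited table and 1 with replicate number as a block beside slide. The number of members that differed between 162 and 18 µg (1) was 0 with median centring, no normalization, the Cy5 channel alone or no slide term, and 2 with a replicate block in place of slide. Over the 22 fits that leave out 1 array, these counts ran from 0 to 3 (members at 18 µg), 0 to 0 (54 µg), 0 to 1 (162 µg), 0 to 1, 0 to 1 and 2 to 5 (other genes at 18, 54 and 162 µg) and 0 to 2 (members between 162 and 18 µg). The causes were not tested.

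Signs turned for uncalled members. At 18 µg median centring gave -0.0455 for C1qa, -0.0142 for C1qc and -0.14 for C4b, no normalization gave -0.20, -0.17 and -0.30, and C5ar1 was 0.0427 with the Cy5 channel alone and 0.0278 with a replicate block beside slide. At 54 µg C4b was -0.0059 with median centring and -0.0196 with the deposited table, C1qa, C1qb and C1qc were 0.0326, 0.0713 and 0.10 with no normalization, C1qc was 0.0107 with the Cy5 channel alone, C1qb and Cfp were 0.0425 and 0.10 with only the 2 groups compared, and C1qb was 0.36 with the replicate block. At 162 µg C1qb, C1qc and C4b were -0.002, -0.051 and -0.16 with median centring and -0.0165, -0.0655 and -0.17 with no normalization, and Cfp was 0.11 with the replicate block. With 1 array left out, values ran from -0.32 to 0.0141 (C1qb), -0.13 to 0.0595 (C1qc), -0.17 to 0.24 (C4b) and -0.0319 to 0.25 (C5ar1) at 54 µg, and from -0.0318 to 0.43 (C4b) and -0.34 to 0.11 (Cfp) at 162 µg. The median of all expressed probes at 18 µg moved to -0.15 with median centring, -0.30 with no normalization and 0.17 with the Cy5 channel alone. Relative to it, 9, 9 and 8 of 9 members lay higher. With median centring 0 probes were called higher and 181 lower at 18 µg, beside 175 and 407.

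Of the other settings, 8 of 15 kept the call of Cfb and 10 of 15 that of C3 at 18 µg, and 10 of 15 that of Cfp between 162 and 18 µg. Replicate number was not a term of the reported fit. Same-numbered lungs of different groups deviated from their group means with correlations of -0.17 to 0.62 (median 0.17), over 0.1 in 20 of 31 pairs. Lungs of other numbers had a median of -0.06, with 40 of 150 pairs over 0.1. Lungs of the same slide had a median of 0.26, with 20 of 24 pairs over 0.1. Same-numbered lungs often shared a slide, so these correlations cannot exclude a pairing by replicate number. With a replicate block beside slide, 159 probes were called higher and 535 lower at 18 µg, 0 and 0 at 54 µg, and 289 and 304 at 162 µg, where 972 and 1029 had been.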
